A study of Mus musculus with 20 samples.

Results

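The G2 and mitosis genes are 47 mouse genes that were listed by symbol for their part in the passage of a cell through G2, mitosis and cytokinesis, and their mRNA was followed here in LLC1 tumors given an adenosine receptor antagonist, cisplatin or both. All 47 symbols matched 1 Ensembl gene each among the 35226 genes of the deposited count table, and all 47 passed the filter on low counts, which kept 16665 genes. The members were sorted into 10 roles, namely cyclins and CDC25 phosphatases (5 genes), kinases (7), kinetochore and checkpoint adaptors (7), kinesins (7), spindle and passenger complex (6), cytokinesis (3), the anaphase-promoting complex (APC/C) and mitotic exit (5), condensins (3), chromosome surface and topology (2) and transcription factors (2). No measured value entered the choice of members, although the list was drawn up with earlier results of these tumors known.

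LLC1 is a mouse Lewis lung carcinoma line. Its cells were injected under the skin of the right flank of young adult male C57Bl6/J mice (the strain of the line), and treatment groups were assigned at random once a tumor measured 100 mm3. The groups, with 5 tumors each, were vehicle (the carrier alone), KW6002 (istradefylline, which blocks the adenosine receptor encoded by Adora2a), cisplatin (a platinum drug that crosslinks DNA), and cisplatin with KW6002, called cotreatment. All tumors stem from 1 cell line and no engineered allele is named for cells or mice, and the doses and schedule of the tumor experiment are not given in the sources used here. The title of vehicle replicate 1 differs in form from those of the other vehicle tumors. Each tumor gave 1 library of poly(A) RNA, so a value is for a whole tumor, in which fewer cells in mitosis and less of an mRNA per cell cannot be told apart.

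Cells enter mitosis when cyclin B binds the kinase CDK1 and CDC25 phosphatases remove the inhibitory phosphates that WEE1 has placed on it. Polo-like and Aurora kinases then drive centrosome maturation, spindle assembly and chromosome attachment, kinesins move the chromosomes and the spindle, and checkpoint proteins at the kinetochores hold the APC/C in check until every chromosome is attached. CDC20 then activates the APC/C, which marks securin and cyclin B for destruction, separase opens the cohesin rings, and the cell divides. Transcripts of these genes build up from late S phase to mitosis under the MuvB complex with B-MYB (Mybl2) and FOXM1, and the related DREAM complex represses them in resting cells and after DNA damage. In tumor tissue their level is widely used as a measure of how many cells are cycling, with Mki67, which encodes the Ki-67 antigen, as the common marker.

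The libraries held 28.4 to 41 M counts per tumor. Counts of the members in a tumor ranged from 482 (Cdc25c) to 25937 (Top2a). Levels below are CPM, that is, counts relative to the library total after TMM scaling, and are listed in the order of replicates 1 to 5. Codes carried by the count columns fall into a lower range, with vehicle replicate 1, KW6002 and cisplatin replicates 1 and 2 and cotreated replicates 1 to 3, and a higher range, with the other 12 tumors. What these ranges stand for is not stated, and they are called here the earlier and the later code run. The keratin mRNAs Krt18 (273 ± 10.8 CPM) and Krt8 (129 ± 8.38 CPM) were present in vehicle tumors, as were the mesenchymal Fn1 (6161 ± 588 CPM) and Vim (3394 ± 254 CPM), while the epithelial marker Epcam stood at 0.0335 ± 0.0432 CPM (SD, n = 5 for each). The 2 lung alveolar markers listed in the table, Sftpc and Scgb1a1, had no counts in any vehicle tumor.

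Per kilobase of annotated exon, the member with the most mRNA in vehicle tumors was Top2a, the topoisomerase that untangles sister chromatids, at 69.9 ± 4.76 CPM per kb (SD, n = 5). It was followed by Ccnb2 (cyclin B2, 57.3 ± 4.83 CPM per kb), the condensin ATPase gene Smc4 (43.3 ± 3.69), Mki67 (41.4 ± 4.65), Cdc20 (40.8 ± 5.3) and Cdk1 (38.6 ± 2.23). From Smc4 on, each level in this order differed from the next by less than the SD of either. The lowest levels were those of Cdc25c (4.39 ± 0.398 CPM per kb), Ttk (5.03 ± 0.594) and Mybl2 (6.08 ± 0.593), the first of which is a phosphatase that activates CDK1 and the second the kinase MPS1 of the spindle checkpoint. The kinetochore genes Ndc80 and Nuf2, whose proteins bind each other in the microtubule-binding complex, were close at 7.61 ± 0.556 and 8.59 ± 0.795 CPM per kb.

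The promoters of these genes are shown because they share short sequence elements through which cell cycle complexes bind. A promoter window of 300 bases, from 250 before to 50 after the start site, was found in the RefSeq table of GRCm38.p6 for 40 members, and Kif20a, Smc4, Cdc25c, Foxm1, Ccna2, Aurkb and Tpx2 have no entry. The cell cycle genes homology region (CHR), searched as TTTGAA or TTCGAA on both strands, was present in 31 of 40 member windows (77.5%) and in 19.2% of all 32851 windows. The CCAAT box, searched as CCAAT on both strands, was present in 29 of 40 (72.5%) against 37.4% of all windows, and both elements together in 27 of 40 (67.5%) against 7.52%. Cores of E2F sites, searched as TTTGGCG or TTTCCCG on both strands, were found in 3 of 40 (7.5%) against 4.84%. No motif searched contains another. A match is a description of the letters and not evidence of binding. Below are the 200 bases before the start site for 5 genes described later, 5′ to 3′ on the strand of the gene, with CHR and CCAAT matches of either strand in capitals (ATTGG and TTCAAA are the forms on the opposite strand). Mki67, Top2a and Kif11 were called lower after cotreatment, and Cdc20 and Espl1 were not.
Mki67 promoter, chr7:135716380-135716579 (minus strand): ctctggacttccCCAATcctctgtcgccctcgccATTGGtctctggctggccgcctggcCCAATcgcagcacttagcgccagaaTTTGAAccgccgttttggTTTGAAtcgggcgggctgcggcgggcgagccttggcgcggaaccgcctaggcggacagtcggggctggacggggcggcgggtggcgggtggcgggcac
Top2a promoter, chr11:99024190-99024389 (minus strand): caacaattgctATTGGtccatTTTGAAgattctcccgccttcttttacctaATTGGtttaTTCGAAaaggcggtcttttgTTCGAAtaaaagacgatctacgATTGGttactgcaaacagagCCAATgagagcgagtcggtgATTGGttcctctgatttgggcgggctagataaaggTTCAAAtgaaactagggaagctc
Kif11 promoter, chr19:37376182-37376381 (plus strand): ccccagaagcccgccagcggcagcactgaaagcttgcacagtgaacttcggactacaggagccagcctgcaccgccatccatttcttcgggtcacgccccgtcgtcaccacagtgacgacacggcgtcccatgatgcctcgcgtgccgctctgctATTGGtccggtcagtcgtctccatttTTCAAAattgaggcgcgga
Cdc20 promoter, chr4:118437344-118437543 (minus strand): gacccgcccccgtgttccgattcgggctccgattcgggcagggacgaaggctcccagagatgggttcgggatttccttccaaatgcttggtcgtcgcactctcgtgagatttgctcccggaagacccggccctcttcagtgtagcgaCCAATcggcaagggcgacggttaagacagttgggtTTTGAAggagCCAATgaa
Espl1 promoter, chr15:102296093-102296292 (plus strand): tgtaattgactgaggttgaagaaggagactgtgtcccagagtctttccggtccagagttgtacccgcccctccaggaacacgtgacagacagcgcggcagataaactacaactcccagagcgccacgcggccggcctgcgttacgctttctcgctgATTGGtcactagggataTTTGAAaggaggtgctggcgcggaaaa

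In these stretches a CCAAT match lay upstream of a CHR match in all 5 genes. The first CHR match began at position -179 from the start site in Top2a and at -116 in Mki67, against -27 in Espl1, -19 in Kif11 and -18 in Cdc20. Over the 40 windows, 30 of 41 CHR matches began between 60 bases before and 50 after the start site, and the median CHR match began at position 3, whereas the median CCAAT match began at position -67.5.

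**Figure D1:**
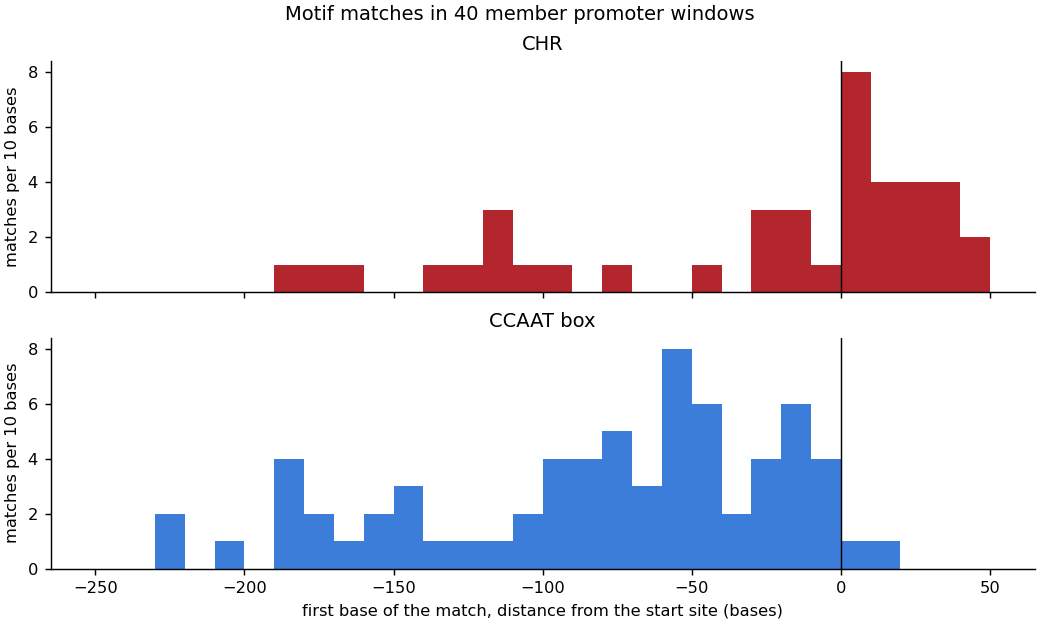
Number of CHR matches (top) and CCAAT matches (bottom) per 10 bases in the promoter windows of 40 members, by the distance of the first base of the match from the start site in bases. The 41 CHR matches cluster around and just after the start site, and the 68 CCAAT matches lie mostly upstream of it.

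To ask whether the antagonist alone altered these genes in the tumor, KW6002 tumors were compared with vehicle tumors. No member was called, and 0% of all genes tested were called. A call required an adjusted P under 0.05 over all 16665 genes by edgeR's quasi-likelihood test and a log2 fold change of at least 0.32 in either direction. At an unadjusted P under 0.05 by edgeR there were 5 members (Aurka, Bub1, Bub1b, Cenpe and Hmmr) and 339 of all genes (2.03%). DESeq2 and limma also called 0 members (5 and 18 at an unadjusted P under 0.05). The shares of all genes at that P by DESeq2 and limma are not given here, so the 18 cannot be set against them. The log2 fold change was below 0 in 46 of 47 members, with a median of -0.14, against a median of -0.003 and 51.8% below 0 over all genes. The lowest values were those of Hmmr, a spindle-associated hyaluronan receptor (-0.24 ± 0.08, SE), and Ccnb2 (-0.24 ± 0.12), and the highest was that of Mybl2 (0.03 ± 0.09).

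These values were lowest in a single tumor. In KW6002 replicate 2, 42 of 47 members were below the lowest vehicle tumor, against 2, 9, 16 and 15 members in replicates 1, 3, 4 and 5. The share of all genes below the lowest vehicle tumor in each of these tumors is not given here. The mean log2 difference of the 47 members from the vehicle mean was 0.01, -0.34, -0.07, -0.12 and -0.15 in the KW6002 tumors, and 0.03, -0.16, 0.05, 0.01 and 0.07 in the vehicle tumors. The groups thus overlapped. Without KW6002 replicate 2 the median log2 fold change was -0.08. Mki67, for example, stood at 400, 323, 388, 361 and 380 CPM in KW6002 tumors and 385, 350, 439, 454 and 455 CPM in vehicle tumors, so that every KW6002 tumor but replicate 2 lay inside the vehicle range.

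Cisplatin alone was then compared with vehicle. No member was called, whereas 10.6% of all genes tested were. At an unadjusted P under 0.05 there were 9 members and 30.9% of all genes, DESeq2 called 0 members, and limma called 2 (Cenpf and Mki67). The median log2 fold change of the members was -0.03, against 0 over all genes, and 27 of 47 were below 0. Leaving out 1 tumor moved this median between -0.07 and 0.02, and it was above 0 without cisplatin replicate 1 (0.02) or vehicle replicate 1 (0.01), -0.06 without cisplatin replicate 2 and -0.07 without vehicle replicate 2. With no fold limit 3 members (6.38%) had an adjusted P under 0.05, against 16.5% of all genes. These were Mki67 (-0.31 ± 0.09, adjusted P = 0.0304), Cenpf, which encodes a large protein of the outer kinetochore (-0.30 ± 0.08, adjusted P = 0.0156) and the condensin gene Smc4 (-0.24 ± 0.07, adjusted P = 0.0224, edgeR).

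Cenpf stood at 171, 161, 182, 175 and 194 CPM in vehicle tumors and 146, 150, 125, 151 and 145 CPM in cisplatin tumors. These ranges did not overlap. Other members lay on the other side of 0, among them Foxm1 (0.21 ± 0.09, adjusted P = 0.101), Birc5, which encodes the passenger protein survivin (0.21 ± 0.11, adjusted P = 0.216), Ccnb2 (0.20 ± 0.12, adjusted P = 0.263) and the condensin gene Ncapd2 (0.19 ± 0.08, adjusted P = 0.112). By role, the medians were 0.16 for APC/C and mitotic exit, 0.09 for cyclins and CDC25 phosphatases, 0.10 for transcription factors, -0.02 for kinetochore and checkpoint adaptors, -0.05 for kinases, -0.06 each for the spindle and passenger complex, cytokinesis and condensins, -0.09 for kinesins and -0.23 for chromosome surface and topology, and 0 members were called in every role. The comparison was also made within the later code run. Among the 3 cisplatin and 4 vehicle tumors of the later run, 7 members were called, of which Mki67, Cenpf and Smc4 were lower and Birc5 (0.39), Cdca3 (0.37), Ccnb2 (0.33) and Ube2c (0.32) were higher. In the same fit 6.93% of all genes were called lower and 9% higher, close to the shares of the members. With the run as a term over all tumors, 0 members were called by edgeR, against 11.1% of all genes, and these 4 stood at 0.23, 0.22, 0.23 and 0.17.

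Cotreatment lowered a subset of the members. A total of 10 of 47 were called lower than in vehicle tumors, as were 10.4% of all genes tested, and 0 members were called higher, against 13.1% of all genes. The 10 were Mki67, Kif23, Cenpe, Cenpf, Hmmr, Bub1, Top2a, Aurka, Bub1b and Kif11, with log2 fold changes from -0.60 to -0.32. In either direction 21.3% of the members were called by edgeR, near the 23.5% of all genes. At an unadjusted P under 0.05 there were 20 members and 44.7% of all genes. DESeq2 called 9 members lower and 0 higher, and limma called 11 lower and 0 higher. The shares of all genes called by DESeq2 and limma in this comparison are not given here. The median over the 47 members was -0.14, against -0.016 over all genes, and 40 members were below 0, against 52.2% of all genes. This median was -0.09 without cotreated replicate 1 and without cotreated replicate 3, and lay between -0.19 and -0.09 over the fits without 1 tumor. With no fold limit 18 members (38.3%) had an adjusted P under 0.05 (edgeR), near the 35.4% of all genes. The cotreated and vehicle tumors did not overlap, with cotreatment lower, in 8 members (17%) and in 12.4% of all genes, and with cotreatment higher in 0 members and in 12.2% of all genes.

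**Figure D2:**
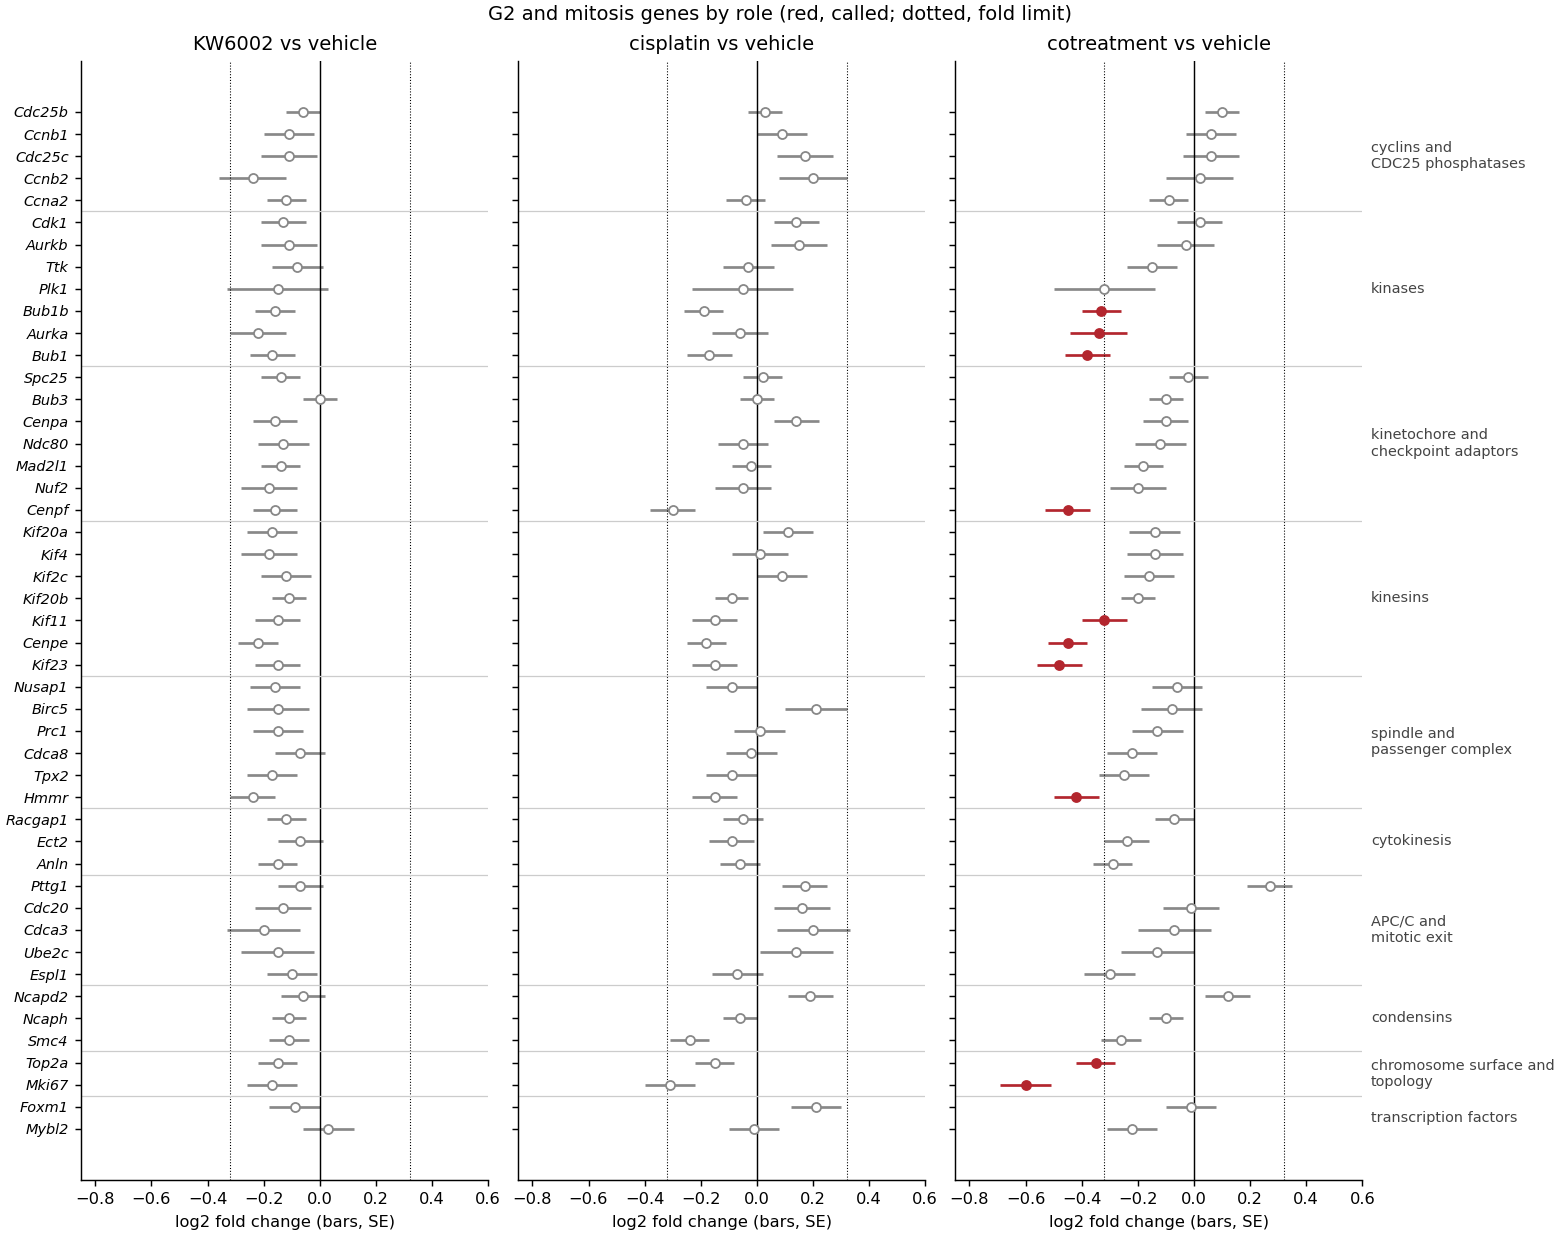
Log2 fold change of each of the 47 members against vehicle (points; bars, SE; edgeR) after KW6002, cisplatin and cotreatment, grouped by role, with called members in red and the fold limit of 0.32 dotted. Called members appear only in the cotreatment panel, where 10 lie at or below -0.32, and the KW6002 points lie almost all slightly below 0.

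Leaving out cotreated replicate 3 or vehicle replicate 5 brought the number of calls to 6, and it lay between 6 and 11 over the 20 fits that left out 1 tumor each. Kif11 lost its call in 14 of those fits, Bub1b in 10, Aurka in 5 and Top2a in 2, whereas Mki67, Kif23, Cenpe, Cenpf, Hmmr and Bub1 were called in all 20. A test against the fold limit itself, rather than against 0, called 1 member, Mki67, and 9.95% of all genes.

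The cotreated tumors also divided by code run. The mean log2 difference of the 47 members from the vehicle mean was -0.35, -0.13 and -0.31 in cotreated replicates 1 to 3, of the earlier run, and -0.01 and -0.06 in replicates 4 and 5, of the later run. For the 10 members called lower, which were chosen by this contrast, it was -0.60, -0.43, -0.56, -0.21 and -0.29. In the later run alone, with 2 cotreated and 4 vehicle tumors, 2 members were called, Mki67 (-0.40, adjusted P = 0.0229, edgeR) and Cenpe (-0.34, adjusted P = 0.0157), and the median over the 47 members was 0.02. That fit called 5.34% of all genes lower. The earlier run holds 1 vehicle tumor, so no comparison with vehicle was made in it. With the code run as a term in the model over both runs, 7 members were called, all lower, against 10.1% of all genes, and the other 3, Aurka (-0.30, adjusted P = 0.0296), Bub1b (-0.30, adjusted P = 0.00324) and Kif11 (-0.28, adjusted P = 0.0111), missed the fold limit only.

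**Figure D3:**
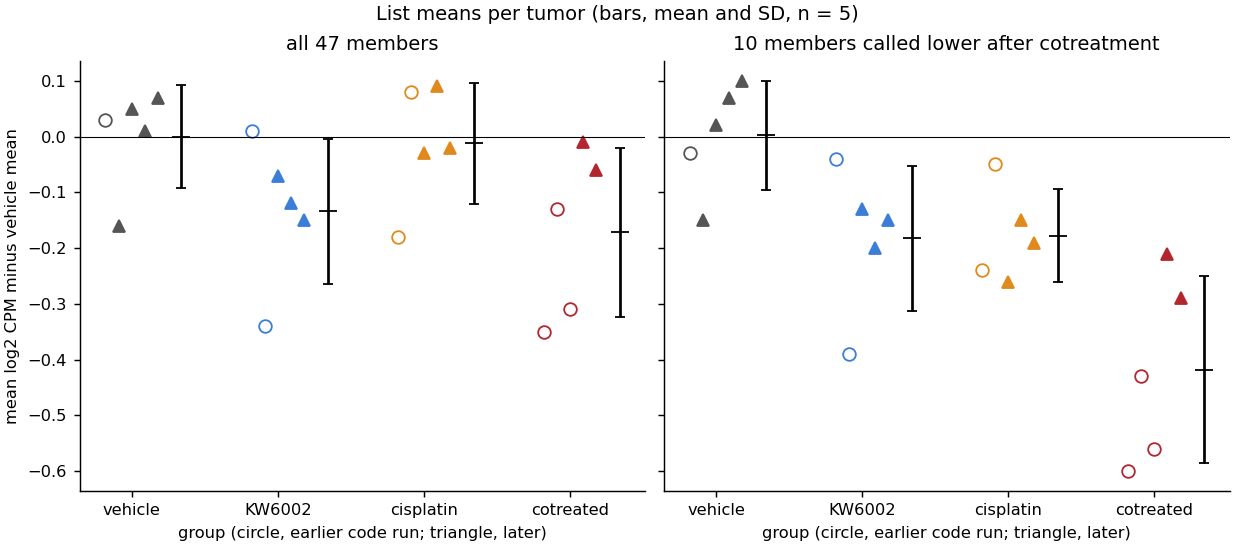
Mean log2 CPM minus the vehicle mean in each tumor over all 47 members (left) and over the 10 members called lower after cotreatment (right), by group; circles, the earlier code run; triangles, the later code run; bars, mean and SD of 5 tumors. The 3 cotreated tumors of the earlier run lie below the 2 of the later run in both panels, and in the left panel the groups overlap.

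Among the chromosome surface and topology genes both members fell (gene positions here and below are those of GRCm38, the assembly mm10). Mki67 (ENSMUSG00000031004, chr7:135689784-135716361), whose protein coats mitotic chromosomes and keeps them apart, had 385, 350, 439, 454 and 455 CPM in vehicle tumors and 230, 255, 253, 318 and 317 CPM in cotreated tumors. Its means were 417 ± 46.8 and 274 ± 40.6 CPM (SD, n = 5), and the log2 fold change was -0.60 ± 0.09 (SE, adjusted P = 5.99e-05, edgeR). Every cotreated tumor lay below every vehicle tumor. Cisplatin tumors, at 340, 359, 289, 356 and 340 CPM, overlapped both. Top2a (ENSMUSG00000020914, chr11:98992943-99024189) had 596, 574, 644, 672 and 664 CPM in vehicle, 627, 491, 578, 563 and 585 CPM in KW6002, 552, 659, 559, 548 and 531 CPM in cisplatin and 468, 483, 459, 562 and 502 CPM in cotreated tumors. Vehicle and cotreated tumors again did not overlap, while the KW6002 and cisplatin tumors overlapped both. The log2 fold change of Top2a was -0.35 ± 0.07 after cotreatment (adjusted P = 0.00092, edgeR).

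**Figure D4:**
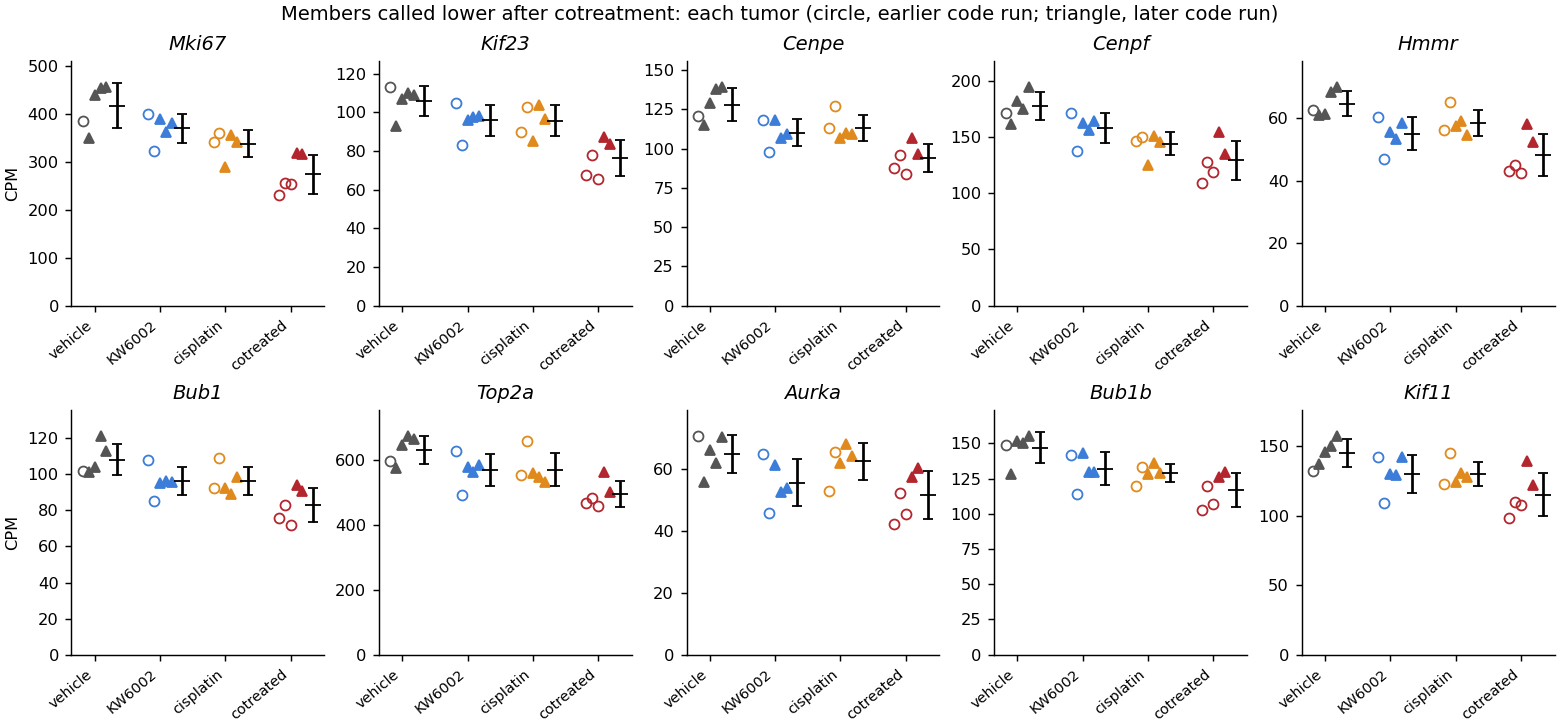
CPM of the 10 members called lower after cotreatment in each of the 20 tumors, by group, with the mean and SD of 5 tumors; circles, the earlier code run; triangles, the later code run; each axis starts at 0. Mki67 is highest in vehicle tumors (350 to 455 CPM) and lowest in cotreated tumors (230 to 318 CPM), and in all 10 panels the cotreated circles lie below the cotreated triangles.

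Of the 7 kinesins, the motors that walk along or take apart microtubules, 3 fell and 4 were not called. Kif23 (ENSMUSG00000032254, chr9:61915905-61946774), a motor of the central spindle needed for cytokinesis, had 113, 92.9, 107, 110 and 109 CPM in vehicle tumors and 67.6, 77.7, 65.7, 87.1 and 83.4 CPM in cotreated tumors. No cotreated tumor reached the lowest vehicle tumor. The log2 fold change was -0.48 ± 0.08 (adjusted P = 0.000142, edgeR). Cenpe (ENSMUSG00000045328, chr3:135212537-135273611), the kinetochore motor that carries chromosomes to the spindle equator, had 121, 115, 129, 138 and 139 CPM against 87.3, 95.6, 83.6, 107 and 96.4 CPM, again without overlap, and a log2 fold change of -0.45 ± 0.07 (adjusted P = 8.24e-05). In the other groups Cenpe had 118, 97.8, 118, 107 and 109 CPM (KW6002) and 113, 127, 107, 110 and 109 CPM (cisplatin), both overlapping the vehicle range. Kif11, the motor Eg5 that pushes the spindle poles apart, had 132 to 157 CPM in vehicle and 98.6 to 139 CPM in cotreated tumors (-0.32 ± 0.08, adjusted P = 0.00477), with cotreated replicate 4 inside the vehicle range. The highest of the role was Kif4 (ENSMUSG00000034311, chrX:100625737-100727214), a chromosome-arm kinesin, with 51, 41, 51.4, 48.9 and 54.3 CPM in vehicle and 37.5, 46.7, 41.1, 51.1 and 48.2 CPM in cotreated tumors, which overlapped (-0.14 ± 0.10, adjusted P = 0.297). Kif4 was at 48.1, 34.9, 46.3, 45.6 and 42.3 CPM in KW6002 tumors and 43.8, 52.3, 46.3, 56.6 and 50 CPM in cisplatin tumors, both ranges overlapping that of vehicle. Kif20a, Kif20b and Kif2c had log2 fold changes of -0.14, -0.20 and -0.16.

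Of the 7 kinases 3 fell and 4 were not called. Bub1 (ENSMUSG00000027379, chr2:127801122-127831865), the checkpoint kinase that marks centromeric histone H2A, had 102, 101, 104, 121 and 113 CPM in vehicle tumors and 75.7, 82.9, 72.1, 93.9 and 90.8 CPM in cotreated tumors. These groups did not overlap, and the log2 fold change was -0.38 ± 0.08 (adjusted P = 0.000664, edgeR). Bub1 was at 108, 85.4, 95.3, 96.5 and 95.7 CPM in KW6002 tumors and 92.3, 109, 92.5, 89.1 and 98.3 CPM in cisplatin tumors, both ranges overlapping that of vehicle. Its relative Bub1b, which encodes the APC/C inhibitor BUBR1, had 128 to 155 CPM against 103 to 130 CPM (-0.33 ± 0.07, adjusted P = 0.00136), and Aurka, the spindle pole kinase Aurora A, 55.8 to 70.5 CPM against 42.1 to 60.2 CPM (-0.34 ± 0.10, adjusted P = 0.0147). In each of these at least 1 cotreated tumor lay inside the vehicle range.

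The kinases not called were Cdk1, Aurkb, Plk1 and Ttk. Cdk1 (ENSMUSG00000019942, chr10:69335146-69352938) had 190, 173, 197, 191 and 202 CPM in vehicle, 197, 144, 186, 179 and 166 CPM in KW6002, 176, 231, 210, 230 and 204 CPM in cisplatin and 173, 192, 179, 207 and 212 CPM in cotreated tumors. The 4 groups overlapped throughout, and the log2 fold change after cotreatment was 0.02 ± 0.08 (adjusted P = 0.901, edgeR). Aurkb (ENSMUSG00000020897, chr11:69045647-69051664), the Aurora kinase of the passenger complex, had 71.6, 60.4, 72.7, 60.2 and 65.9 CPM in vehicle and 54, 73, 60.5, 70.9 and 66.1 CPM in cotreated tumors (-0.03 ± 0.10, adjusted P = 0.856), with 70.3, 54.3, 67.5, 59.4 and 55 CPM in KW6002 and 60, 77.2, 72.1, 82.3 and 75.5 CPM in cisplatin tumors, all overlapping. Plk1 (ENSMUSG00000030867, chr7:122159439-122169873) varied more between tumors, relative to its mean, than any other kinase of the list. It had 49, 31.7, 48.2, 29.2 and 38.5 CPM in vehicle, 41.9, 30.4, 40.8, 35.3 and 28.5 CPM in KW6002, 28.6, 31.7, 37.9, 50 and 41.1 CPM in cisplatin and 24.4, 36.7, 25.8, 37.5 and 33.2 CPM in cotreated tumors, and its log2 fold change of -0.32 ± 0.18 after cotreatment had an adjusted P of 0.17 (edgeR). Ttk, of the spindle checkpoint like Bub1 and Bub1b, stood at -0.15 (adjusted P = 0.246).

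Among the kinetochore and checkpoint adaptors 1 of 7 fell. Cenpf (ENSMUSG00000026605, chr1:189640606-189688086) had 171, 161, 182, 175 and 194 CPM in vehicle tumors and 109, 128, 119, 154 and 135 CPM in cotreated tumors, and no cotreated tumor reached the vehicle range (-0.45 ± 0.08, adjusted P = 0.00022, edgeR). KW6002 tumors, at 171, 137, 162, 156 and 164 CPM, overlapped the vehicle range. Spc25 (ENSMUSG00000005233, chr2:69193895-69206194), a subunit of the NDC80 complex, was the highest of the role, with 31.5, 33.4, 30.4, 36.2 and 34.2 CPM in vehicle and 30.7, 32.8, 30, 36.8 and 33 CPM in cotreated tumors (-0.02 ± 0.07, adjusted P = 0.853). Its groups overlapped. Spc25 was at 31.1, 27.3, 32.1, 30 and 29.7 CPM in KW6002 tumors and 31.2, 37.7, 34.4, 34.7 and 30.6 CPM in cisplatin tumors, both ranges overlapping that of vehicle. Its partners in that complex, Ndc80 and Nuf2, stood at -0.12 and -0.20, the centromeric histone gene Cenpa at -0.10, and the checkpoint genes Bub3 and Mad2l1 at -0.10 and -0.18, with adjusted P values from 0.0558 (Mad2l1) to 0.387 (Cenpa) among these 5.

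Of the 6 spindle and passenger complex genes 1 fell. Hmmr (ENSMUSG00000020330, chr11:40701395-40733422) had 62.7, 61, 61.5, 68.4 and 69.9 CPM in vehicle, 60.4, 47, 55.5, 53.3 and 58.5 CPM in KW6002, 56.2, 65.2, 57.5, 59.2 and 54.5 CPM in cisplatin and 43.1, 44.9, 42.6, 58.3 and 52.3 CPM in cotreated tumors. Every KW6002 and every cotreated tumor lay below every vehicle tumor, but only the cotreated group was called (-0.42 ± 0.08, adjusted P = 0.00053, against -0.24 ± 0.08, adjusted P = 1, after KW6002, edgeR). Nusap1 (ENSMUSG00000027306, chr2:119618298-119651244), which bundles spindle microtubules, had 61, 59.9, 60.5, 71.9 and 69 CPM in vehicle and 57.8, 59, 55.1, 69.2 and 69 CPM in cotreated tumors, which overlapped (-0.06 ± 0.09, adjusted P = 0.645). Nusap1 was at 63.5, 47.6, 61, 56.1 and 60.9 CPM in KW6002 tumors and 56.2, 70.1, 61, 58.9 and 56.3 CPM in cisplatin tumors, both ranges overlapping that of vehicle. The Aurora A activator gene Tpx2 had an adjusted P of 0.0357 at a log2 fold change inside the limit (-0.25). Cdca8, which encodes the passenger protein borealin, stood at -0.22, Prc1, whose protein crosslinks the central spindle, at -0.13 and Birc5 at -0.08, and these 3 were not called.

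Cytokinesis genes were not called. Anln (ENSMUSG00000036777, chr9:22332012-22389188), which encodes the contractile ring scaffold anillin, had 257, 242, 288, 266 and 273 CPM in vehicle tumors and 203, 214, 201, 242 and 219 CPM in cotreated tumors. The highest cotreated tumor equalled the lowest vehicle tumor at 3 digits, and the log2 fold change of -0.29 ± 0.07 was inside the limit although its adjusted P was 0.00279 (edgeR). In the other groups Anln had 259, 202, 240, 251 and 247 CPM (KW6002) and 221, 268, 255, 264 and 261 CPM (cisplatin), both overlapping the vehicle range. Racgap1 (ENSMUSG00000023015, chr15:99620496-99651656), the partner of Kif23 in the centralspindlin complex, had 195, 168, 196, 188 and 190 CPM in vehicle and 163, 185, 165, 180 and 198 CPM in cotreated tumors, which overlapped (-0.07 ± 0.07, adjusted P = 0.421). Racgap1 was at 181, 149, 182, 185 and 169 CPM in KW6002 tumors and 168, 197, 175, 182 and 184 CPM in cisplatin tumors, both ranges overlapping that of vehicle. Ect2, the exchange factor that switches on RhoA at the division plane, stood at -0.24 (adjusted P = 0.0242).

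None of the 5 cyclins and CDC25 phosphatases was called, and their median after cotreatment was 0.06. Ccnb1 (ENSMUSG00000041431, chr13:100778650-100786570), cyclin B1, had 40.3, 38.7, 38.3, 42.2 and 42.5 CPM in vehicle, 41.2, 30.6, 39.3, 38.8 and 36.9 CPM in KW6002, 36, 49, 46.5, 42.7 and 40.6 CPM in cisplatin and 38.5, 43.6, 37.4, 47.2 and 44.2 CPM in cotreated tumors. The ranges of all 4 groups overlapped (0.06 ± 0.09 after cotreatment, adjusted P = 0.612, edgeR). Cdc25b (ENSMUSG00000027330, chr2:131186949-131198497) had 93.1, 80.8, 93.7, 82.1 and 94.5 CPM in vehicle and 94.9, 93.9, 88.8, 102 and 96.8 CPM in cotreated tumors (0.10 ± 0.06, adjusted P = 0.24), and Ccna2 (ENSMUSG00000027715, chr3:36564865-36572150), cyclin A2, had 144, 135, 149, 157 and 153 CPM and 123, 140, 128, 145 and 158 CPM (-0.09 ± 0.07, adjusted P = 0.352). These were the highest and the lowest of the role. Cdc25b was at 95.8, 75.8, 85.1, 87.3 and 82.3 CPM in KW6002 tumors and 87.3, 99.6, 90.1, 92.6 and 84.6 CPM in cisplatin tumors, both ranges overlapping that of vehicle. In the other groups Ccna2 had 151, 117, 133, 140 and 138 CPM (KW6002) and 127, 159, 143, 148 and 144 CPM (cisplatin), both overlapping the vehicle range. Ccnb2 and Cdc25c lay between them at 0.02 and 0.06.

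APC/C and mitotic exit genes diverged without a call. Pttg1 (ENSMUSG00000020415, chr11:43420250-43426251), which encodes securin, the inhibitor of separase, had 35.2, 34.4, 36.9, 38.6 and 40.7 CPM in vehicle, 34.7, 31.1, 39.2, 37.4 and 34.9 CPM in KW6002, 38.1, 44.1, 38.2, 46.4 and 42 CPM in cisplatin and 40.1, 49.9, 41.8, 45.3 and 47.3 CPM in cotreated tumors. Cotreated replicate 1 was within the vehicle range and the other 4 were above it. The log2 fold change was 0.27 ± 0.08 (adjusted P = 0.0078, edgeR), inside the fold limit. Espl1 (ENSMUSG00000058290, chr15:102296266-102324357), separase itself, had 87.2, 68.4, 78.3, 60.3 and 72.7 CPM in vehicle and 56.4, 62.6, 52, 64.1 and 62.3 CPM in cotreated tumors, which overlapped (-0.30 ± 0.09, adjusted P = 0.00963). Espl1 was at 77.6, 63.2, 69.5, 70.4 and 60.3 CPM in KW6002 tumors and 63, 71.9, 71.5, 74.5 and 67.5 CPM in cisplatin tumors, both ranges overlapping that of vehicle. Cdc20 (ENSMUSG00000006398, chr4:118432901-118437352) had 87.5, 60.5, 79.7, 75.1 and 78.2 CPM in vehicle, 77.5, 62.1, 75.4, 71.3 and 62.9 CPM in KW6002, 66.7, 89.3, 87.3, 95.1 and 88.2 CPM in cisplatin and 64.1, 79.2, 68.2, 82.5 and 83.7 CPM in cotreated tumors, with all groups overlapping (-0.01 ± 0.10 after cotreatment, adjusted P = 0.944). Ube2c, the ubiquitin-conjugating enzyme of the APC/C, and Cdca3 stood at -0.13 and -0.07.

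The 3 condensins, which compact chromosomes for division, were not called either. Smc4 (ENSMUSG00000034349, chr3:69004738-69034623) had 206, 208, 230, 253 and 231 CPM in vehicle tumors and 182, 183, 182, 192 and 205 CPM in cotreated tumors. No cotreated tumor reached the lowest vehicle tumor, yet the log2 fold change of -0.26 ± 0.07 stayed inside the limit (adjusted P = 0.00715, edgeR). In the other groups Smc4 had 234, 186, 201, 205 and 221 CPM (KW6002) and 193, 217, 185, 174 and 185 CPM (cisplatin), both overlapping the vehicle range. Ncapd2 (ENSMUSG00000038252, chr6:125168007-125191701) had 200, 152, 185, 168 and 180 CPM in vehicle and 171, 220, 175, 199 and 198 CPM in cotreated tumors, with overlap (0.12 ± 0.08, adjusted P = 0.237), and Ncaph stood at -0.10. Ncapd2 was at 187, 157, 172, 173 and 158 CPM in KW6002 tumors and 181, 225, 194, 207 and 200 CPM in cisplatin tumors, both ranges overlapping that of vehicle. Of the transcription factors, Foxm1 (ENSMUSG00000001517, chr6:128362967-128376146) had 87.2, 68.1, 90.1, 70.5 and 77.3 CPM in vehicle, 80.8, 66.7, 77.7, 74 and 70.9 CPM in KW6002, 79.1, 95.1, 91.6, 99.1 and 88.9 CPM in cisplatin and 66.1, 85.8, 75.5, 84.5 and 79.9 CPM in cotreated tumors. Cotreated and vehicle tumors overlapped (-0.01 ± 0.09, adjusted P = 0.97). Mybl2 (ENSMUSG00000017861, chr2:163054687-163084688) had 32.3, 25.7, 29.4, 27.4 and 26 CPM in vehicle, 32.5, 28.1, 29.5, 29.6 and 24.5 CPM in KW6002, 27, 31.3, 27.1, 28.9 and 25.8 CPM in cisplatin and 21.2, 24.9, 22.1, 25.5 and 27.2 CPM in cotreated tumors, and its log2 fold change of -0.22 ± 0.09 was inside the limit (adjusted P = 0.0497).

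**Figure D5:**
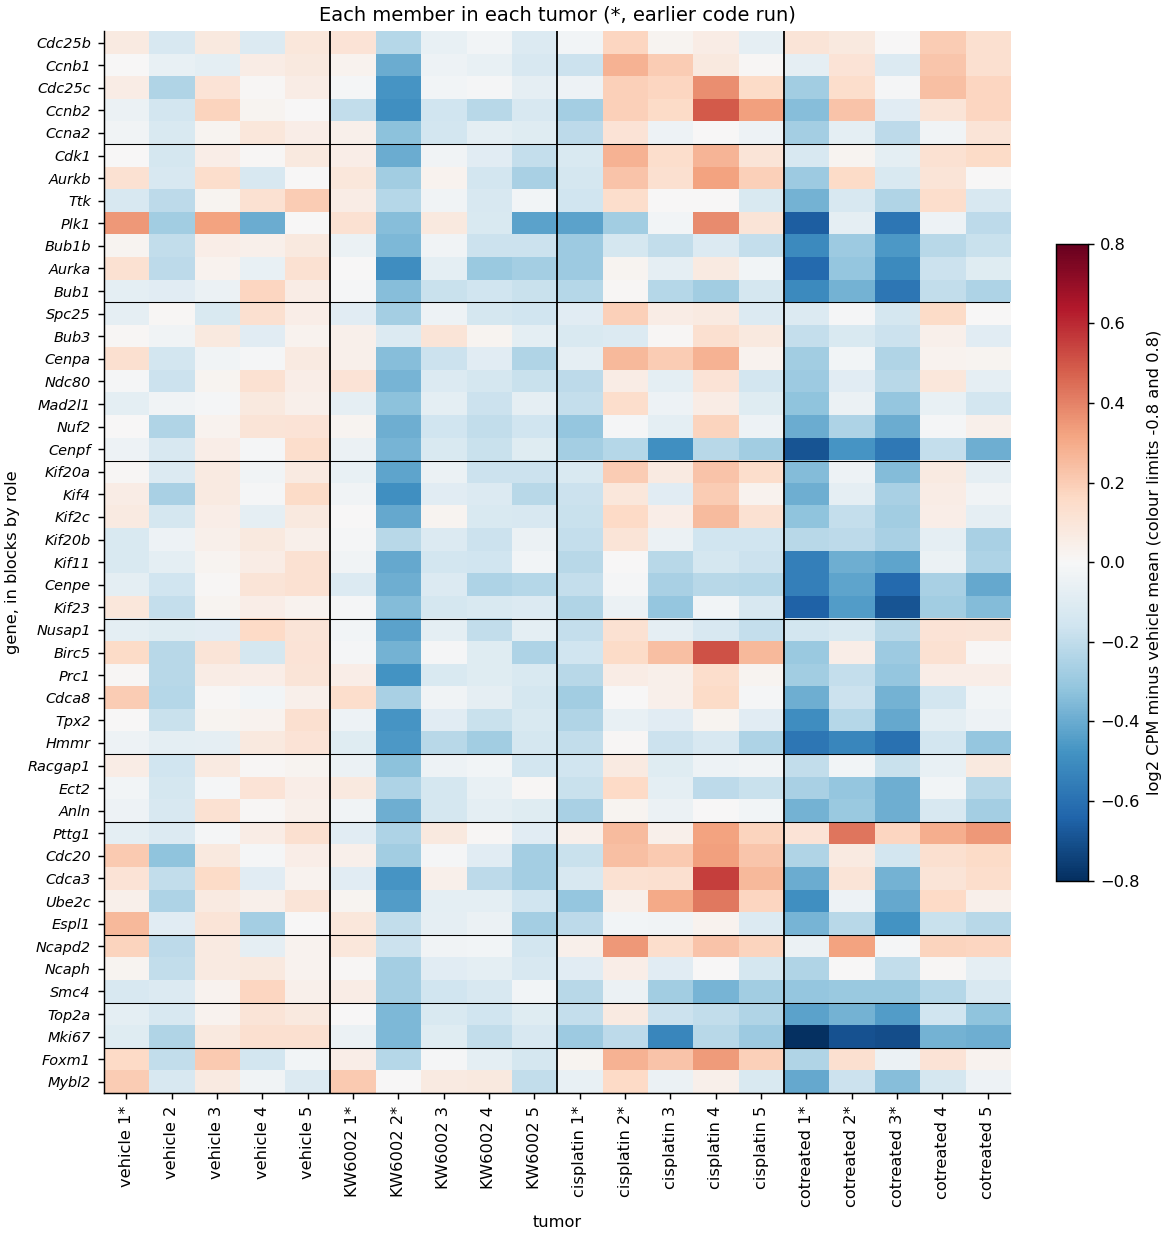
Log2 CPM of each member (rows, in blocks by role) in each of the 20 tumors (columns) minus the vehicle mean of that member; blue, lower; red, higher; asterisks mark the earlier code run. Cotreated replicates 1 and 3 and KW6002 replicate 2 are blue across most rows, Mki67 is blue in all cotreated tumors, and Pttg1 is red in all cotreated tumors.

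Length and base composition of the members were set beside the calls, as a description without a test. The 10 called lower had a median annotated exon length of 7681 bases (2531 to 15433), the other 37 members 4919 (1531 to 9063) and 16654 tested genes with annotation 3852. The median GC content of the longest transcript was 43.3% (41 to 51.4), 47.8% (39.4 to 56.3) and 49.3%. These ranges overlapped, and Aurka and Bub1b, with 51.4% and 50.4% GC, lay above the median of all genes. When length and GC content were entered as an offset, 8 of the 10 were called lower. The share of all genes called lower with that offset is not given here. Kif11 (-0.31, adjusted P = 0.0197) and Bub1b (-0.31, adjusted P = 0.00091, edgeR) then missed the fold limit only. A CCAAT match was present in the promoter windows of all 10 and of 19 of the 30 other members with a window, and a CHR match in 9 and in 22. Some counts could include reads of other genes. Exons of 11 members overlap a gene on the opposite strand, among them Cdc20, Plk1, Nusap1 and Ccna2, and the strand option of the counting is not stated, while Foxm1 and Ncapd2 each overlap another gene on the same strand.

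KW6002 given with cisplatin was compared with cisplatin alone to ask what the antagonist added. One member, Kif23, was called lower, as were 1.71% of all genes tested. It had 89.8, 103, 85.3, 104 and 96.7 CPM in cisplatin tumors and 67.6, 77.7, 65.7, 87.1 and 83.4 CPM in cotreated tumors. Cotreated replicate 4 lay above the lowest cisplatin tumor, so the groups overlapped. The log2 fold change was -0.33 ± 0.08 (adjusted P = 0.0212, edgeR), close to the fold limit, and the call was lost without cisplatin replicate 2 or 4 and without cotreated replicate 1, 2 or 3. It was also absent in the later run alone (-0.16, adjusted P = 0.447) and, on adjusted P, in the earlier run alone (-0.46, adjusted P = 0.0781). Cenpe (-0.27, adjusted P = 0.0325) and Hmmr (-0.28, adjusted P = 0.0494) passed on adjusted P but not on the fold limit, which made 3 members (6.38%) on adjusted P alone, against 6.52% of all genes. Over the 47 members the log2 fold change was below 0 in 44, with a median of -0.16, against a median of -0.006 and 51.2% below 0 over all genes. In the later run alone 33 members were below 0 and the median was -0.04, and in the earlier run alone 46 were below 0 and the median was -0.21. Within the earlier run, with 3 cotreated and 2 cisplatin tumors, Mki67 (-0.52), Hmmr (-0.49) and Cenpe (-0.44) were called lower, against 0.862% of all genes. In the later run Mki67, Hmmr and Cenpe stood at -0.05, -0.04 and -0.09. There 0 members were called by edgeR, 3 other members had an unadjusted P under 0.05, and 0.00581% of all genes were called lower.

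Against KW6002 alone, cotreated tumors had lower Mki67 and Kif23 and higher Pttg1. In number, 2 members were thus called lower, against 10.7% of all genes tested, and 1 higher, against 12.6%. Over the 20 fits without 1 tumor the Kif23 call was lost in 5 and the Pttg1 call in 2, whereas Mki67 was called in all 20. Mki67 had 400, 323, 388, 361 and 380 CPM in KW6002 tumors and 230, 255, 253, 318 and 317 CPM in cotreated tumors, which did not overlap (-0.43 ± 0.09, adjusted P = 0.00131, edgeR). Kif23 had 105, 83.1, 96.1, 97.6 and 98.1 CPM in KW6002 tumors, and its cotreated values above overlapped them at KW6002 replicate 2 (-0.33 ± 0.08, adjusted P = 0.0035). Every cotreated tumor was above every KW6002 tumor in Pttg1 (0.34 ± 0.08, adjusted P = 0.00154), and this call was present in the earlier run alone (0.41, with 10.7% of all genes called higher) and in the later run alone (0.33, with 5.23%), but not by limma. Mki67 and Kif23 were called in the earlier run alone (-0.56 and -0.42, with Cenpf at -0.38, Mybl2 at -0.42 and 10.1% of all genes also called lower) and not in the later run alone, where they stood at -0.23 (adjusted P = 0.201) and -0.18 (adjusted P = 0.218), with 4.37% of all genes called lower. With the code run as a term Mki67 and Pttg1 were called, whereas Kif23 (-0.32, adjusted P = 0.00464, edgeR) fell just inside the fold limit, and 10.7% of all genes were called lower. On adjusted P alone 8 members (17%) passed, against 35% of all genes. The median over the members was -0.02, against -0.012 over all genes. It was -0.09 in the earlier run alone and 0.09 in the later run alone, and over the fits without 1 tumor it lay on both sides of 0, from -0.06 (without KW6002 replicate 2 or cotreated replicate 4) to 0.04 (without cotreated replicate 3), with 0.03 without KW6002 replicate 1 or cotreated replicate 1. This comparison and the preceding ones share their control or cotreated tumors and are not independent of each other.

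The interaction asks whether KW6002 acted differently with cisplatin than without it. No member was called, against 0.066% of all genes tested, and no member had an unadjusted P under 0.05, against 12.2% of all genes. DESeq2 and limma also called 0 members. Values ranged from -0.25 (Mybl2) to 0.19 (Nusap1), with a median of -0.03 and a smallest adjusted P of 0.415 (edgeR).

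Other genes of the pathway were followed as lists. Of 75 further G2 and M genes, 6 were called higher and 8 lower after cotreatment, with a median log2 fold change of -0.14, and 5 were called higher and 0 lower after cisplatin. Of 16 APC/C subunits and activators 1 was called lower after cotreatment and 0 after cisplatin. Of the DNA replication genes, 17 of 40 were called lower and 0 higher after cotreatment (median -0.30), 9 were called lower against cisplatin alone, and 1 was called lower and 1 higher after cisplatin. Over all genes tested, 13.1% were called higher and 10.4% lower after cotreatment, 6.01% and 4.57% after cisplatin, and 1.71% lower after cotreatment than after cisplatin. The further G2 and M genes called lower were thus near the share of all genes, and those called higher after cotreatment were below it. No difference between lists, or between a list and all genes, was tested. None of the genes of these lists was called after KW6002 alone.

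Genes that hold cells in G2 were counted next. Of 18 such checkpoint genes and brakes, 5 were called higher and 1 lower after cisplatin, and 8 higher and 2 lower after cotreatment, where all genes gave 6.01% and 4.57% after cisplatin and 13.1% and 10.4% after cotreatment. Cdkn1a, which encodes the CDK inhibitor p21, had 299, 393, 262, 344 and 260 CPM in vehicle, 461, 581, 550, 470 and 505 CPM in cisplatin and 622, 537, 495, 518 and 478 CPM in cotreated tumors. Both treated groups lay above every vehicle tumor, with log2 fold changes of 0.72 ± 0.11 (adjusted P = 0.00026) and 0.77 ± 0.11 (adjusted P = 3.63e-05, edgeR). Btg2, an antiproliferative p53 target, rose by 0.79 and 0.86. Chek1, the checkpoint kinase that restrains CDC25, had 35.1, 33.2, 33.6, 40.7 and 38 CPM in vehicle and 23.4, 24.1, 24.1, 24.7 and 27.7 CPM in cotreated tumors, without overlap, and was called lower after cotreatment (-0.54 ± 0.07, adjusted P = 9.99e-06). Atm, the kinase that senses DNA breaks, was called lower after cisplatin (-0.42) and after cotreatment (-0.51, adjusted P = 0.000137).

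Of 20 genes of the MuvB, E2F and pocket protein families, which set the transcription of the members, 4 were called higher and 4 lower after cotreatment, against 13.1% and 10.4% of all genes, and 0 after cisplatin, against 10.6% in either direction. Rbl2, which encodes p130, a subunit of the repressive DREAM complex, had 61.2, 65.2, 65.4, 67.4 and 63.3 CPM in vehicle, 79.2, 82.7, 72, 69.3 and 70.3 CPM in cisplatin and 96.2, 93.2, 90.4, 84.1 and 82.6 CPM in cotreated tumors. Both treated groups lay above every vehicle tumor, and only cotreatment was called (0.47 ± 0.06, adjusted P = 8.97e-06, edgeR). E2f7, an E2F repressor, had 21.8, 21.1, 20.3, 21.7 and 22.5 CPM in vehicle and 16.4, 16.5, 16.9, 16.8 and 17.3 CPM in cotreated tumors (-0.36 ± 0.07, adjusted P = 0.000627). The activators E2f1 (-0.32 ± 0.07, adjusted P = 0.000706) and E2f2 (-0.37 ± 0.08, adjusted P = 0.0013) were lower too. In all 3 E2F genes no cotreated tumor reached the lowest vehicle tumor.

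Marker genes of other cells moved with cisplatin, in groups where the members were and were not called. After KW6002 alone 0 markers were called against vehicle. Some KW6002 sums spread wider, at 4.38 to 55.4 CPM for B cell markers (vehicle 3.5 to 5.49 CPM) and 5.03 to 33.6 CPM for T and NK cell markers (vehicle 3.03 to 10.4 CPM). Muscle markers had 4.1 to 227 CPM there (vehicle 4.7 to 56.5 CPM). All these ranges overlapped those of vehicle. All 5 red blood cell markers were called lower after both cisplatin treatments, and their summed level was 25.9 to 117 CPM in vehicle, 0 to 0.0613 CPM in cisplatin and 0.0341 to 0.11 CPM in cotreated tumors. Of 6 endothelial markers, 6 were lower after cisplatin and 5 after cotreatment, and the sum was 128 to 191 CPM in vehicle, 61.1 to 82.2 CPM in cisplatin and 63.8 to 99.5 CPM in cotreated tumors. Of the 5 neutrophil markers tested, 2 were lower after cisplatin and 4 after cotreatment, with sums of 44.7 to 120 CPM in vehicle, 13.8 to 67.3 CPM in cisplatin and 13.6 to 32.4 CPM in cotreated tumors. Macrophage markers summed to 2315 to 3444 CPM in vehicle, 3212 to 4378 CPM in cisplatin and 2726 to 3903 CPM in cotreated tumors, with means of 2928, 3796 and 3231 CPM. Of these 9 genes 1 was called higher and 0 lower after cisplatin, where 5 had an unadjusted P under 0.05 (edgeR), and 1 was called higher and 1 lower after cotreatment. Of 7 fibroblast markers, 1 was called higher and 3 lower after cisplatin, and 1 and 2 after cotreatment, with sums of 2936 to 3626 CPM in vehicle, 2615 to 4507 CPM in cisplatin and 3054 to 4012 CPM in cotreated tumors. T and NK cell, B cell, muscle, fat and skin markers had 0 calls against vehicle after either treatment by edgeR. Of these lists, only 3 of 5 B cell and 1 of 6 skin markers were tested. Against KW6002 alone, 7 of 10 T and NK cell and 1 of 3 B cell markers were called lower after cotreatment. At an unadjusted P under 0.05 against vehicle there were 5 of 5 fat markers after cisplatin. After cotreatment there were 1 of 10 T and NK cell and 3 of 6 muscle markers. The median log2 fold change was -3.84 over the fat markers after cisplatin and 3.67 over the muscle markers after cotreatment. Fat sums were 21.6 to 334 CPM (mean 90.3) in vehicle and 13.2 to 34.2 CPM (mean 19.8) in cisplatin tumors. Muscle sums were 4.7 to 56.5 CPM (mean 15.3) in vehicle and 3.59 to 1025 CPM (mean 224) in cotreated tumors. Both pairs of ranges overlapped, so these medians do not describe every tumor of a group. Of the 5 epithelial carcinoma markers tested, 2 were called higher after cisplatin and 2 after cotreatment, and the sum of the list was 393 to 426 CPM in vehicle, 481 to 601 CPM in cisplatin and 469 to 549 CPM in cotreated tumors, without overlap with vehicle. Most of this sum was Krt18 and Krt8. In vehicle, cisplatin and cotreated tumors Krt18 was at 273 ± 10.8, 340 ± 25.3 and 316 ± 22.9 CPM (SD, n = 5). Krt8 was at 129 ± 8.38, 185 ± 19.9 and 191 ± 7.51 CPM. Means of the other genes, in the same order, were 1.91, 1.86 and 2.16 CPM for Cdh1 and 2.42, 4.14 and 2.29 CPM for Krt19. They were 0.218, 0.663 and 0.675 CPM for Krt7 and 0.0335, 0.0409 and 0.00489 CPM for Epcam. Of 4 mesenchymal markers 2 were called lower after cisplatin and 0 after cotreatment, with 3 of 4 at an unadjusted P under 0.05 in the latter (edgeR), with sums of 8699 to 10447 CPM in vehicle, 7380 to 10077 CPM in cisplatin and 7762 to 8938 CPM in cotreated tumors. The part of these cells in the levels of the members was not tested.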

How the data were processed

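RNA was sequenced from 20 LLC1 tumors, 5 per group, as described above. The deposited table holds raw counts of reads per Ensembl gene, made by the authors with HTSeq-count (HTSeq 0.6.1p1, union mode) from single-end reads aligned uniquely to mm10 with STAR. The libraries were stranded and carried no molecular identifiers, and the strand option is not stated. Totals were 28.4 to 41 M counts, and no count column was left unused (0 columns).

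Symbols and positions came from GENCODE M21 (GRCm38, the assembly mm10), which matched 35142 of 35226 genes, and promoter windows from RefSeq (GRCm38.p6). Counts were filtered with filterByExpr, scaled by TMM and fitted with 4 group means over all 20 tumors by edgeR 4.0.16 (quasi-likelihood, robust, two-sided) in R 4.3.3, with Benjamini-Hochberg adjustment over 16665 genes. The fold limit of 0.32 is the one the study used. The fit was tested on simulated data.

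All 47 members were described by role. Every tumor's values are given for 9 index members, for the 3 called members with the smallest adjusted P per direction and comparison, and for the highest and lowest member of each role of at least 3 genes. Of the other genes, those named are the called ones of the checkpoint and of the E2F lists, at most 4 each. Genes named beyond this were chosen after their values were seen. The members, lists and tests were chosen with earlier results of these data known. Alternatives were DESeq2 1.42.0, limma 3.58.1 (voom with sample weights), 2 other scalings, 2 other filters, no fold limit, a test against the limit, only the groups compared, a replicate block, the code run as a term or each run alone, a length and GC offset, and leaving out each tumor. The sources name 1 tumor per library and do not say more of the animals, so P values measure the spread between these tumors. No pair of replicates agreed within sampling noise.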

Additional observations from a re-analysis of the deposited data

Results flagged for a closer look

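Single tumors that stood apart from the other 4 of their group, by a gap to the nearest tumor that was large for the range of the group, were found in 14 of 188 tests (47 members in 4 groups). Chance flags about 1 in 20, and the members are not independent, since they were measured in the same tumors. Vehicle replicate 2 was low in 6 members, with 18.2 CPM of Cdc25c, 128 CPM of Bub1b, 92.9 CPM of Kif23, 168 CPM of Racgap1, 46.9 CPM of Ube2c and 59.7 CPM of Ncaph. Its mean log2 difference from the vehicle mean over the 47 members was -0.16. KW6002 replicate 2 was low in Ccnb2 (62.1 CPM) and Cdc25c (15.5 CPM). Cisplatin replicate 3 was low in Cenpf (125 CPM) and Mki67 (289 CPM), and cisplatin replicate 1 in Anln (221 CPM) and Cdc20 (66.7 CPM). Cisplatin replicate 2 was high in Top2a (659 CPM) and cotreated replicate 4 in Kif20b (75.3 CPM). The interaction test, which sets the response to KW6002 with cisplatin against that without it, called 0 members and 0.066% of all genes. A missing call there does not show that the responses were equal.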

How the results depend on the processing

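The 10 members lowered after cotreatment kept their sign in every fit. They were chosen by this contrast with vehicle and every fit reused these tumors, so a kept sign is no independent support. In the later run alone their log2 fold changes ran from -0.40 (Mki67) to -0.09 (Aurka). The count of members called was within 1.5 times of 10 except under the settings named here. Shares of all genes called in the same fit stand in parentheses. The count was 2 (12.8%) in the later code run alone, where the median over the 47 members was 0.02, 1 (9.95%) in the test against the fold limit and 18 (35.4%) without a fold limit, of which 17 were lower and 1 higher, and 6 to 11 over the fits without 1 tumor. After cisplatin alone, where no member was called, the counts were 7 (15.9%) in the later run alone, 2 (10.8%) by limma and 3 (16.5%) without a fold limit, and 0 to 1 without 1 tumor. For cotreatment against cisplatin the count of 1 became 0 with the code run as a term (3.42%), in the later run alone (0.00581%), by limma (6.11%), with no filter on low counts (1.38%), with only the groups compared (1.35%) and in the test against the fold limit (0.168%), and it became 3 in the earlier run alone (1.93%), with the length and GC offset (4.34%) and without a fold limit (6.52%), and 0 to 3 without 1 tumor. For cotreatment against KW6002 the count of 3 became 5 (20.9%) in the earlier run alone, 1 (9.6%) in the later run alone, 2 with the code run as a term (without Kif23), 0 (10.6%) in the test against the fold limit and 8 (35%) without a fold limit, and 2 to 4 without 1 tumor. With the code run as a term Kif23 stood at -0.32 against cisplatin (adjusted P = 0.0262, edgeR), just inside the fold limit. The cause of these shifts was not tested. Over the fits without 1 tumor the median over the members was -0.17 to -0.08 after KW6002, -0.07 to 0.02 after cisplatin, -0.19 to -0.09 after cotreatment, -0.2 to -0.12 for cotreatment against cisplatin, -0.06 to 0.04 against KW6002 and -0.09 to 0.01 for the interaction. For KW6002 alone and for the interaction, 0 members were called under each alternative tried. Replicate numbers did not pair the tumors. Of 30 pairs of tumors with the same number, 12 had deviations that correlated above 0.1 (median -0.03), as did 39 of 120 pairs with other numbers (median 0.01). With the replicate number as a block the counts of members called were 10, 1 and 3 for cotreatment against vehicle, cisplatin and KW6002, and 0 for the other comparisons. The shares of all genes called with that block are not given here. With 28.4 to 41 M counts per tumor and at least 482 counts per member, no member was near the filter on low counts.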

Other observations

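The further G2 and M genes were set beside all genes after cotreatment, with 6 of 75 called higher and 8 of 75 lower, while of all genes 13.1% were called higher and 10.4% lower, and the difference was not tested. The genes named here were chosen after their values were seen. Of the 75 further G2 and M genes, the 6 called higher after cotreatment were Ckap2 (0.79, adjusted P = 2.21e-06, edgeR), Psrc1 (0.67), Cenpt (0.58), Gtse1 (0.56), Kifc5b (0.44) and Kifc1 (0.34). Ckap2, Psrc1 and Gtse1 encode spindle or microtubule proteins, and Cenpt links the centromere to the NDC80 complex. Of these 6, 5 were also called higher after cisplatin alone, with log2 fold changes of 0.66 for Ckap2, 0.65 for Psrc1, 0.69 for Gtse1, 0.57 for Kifc5b and 0.44 for Kifc1. Kifc1 and Kifc5b are closely related copies, so their counts are uncertain.

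The 8 called lower after cotreatment were the lamin gene Lmnb1 (-0.60, adjusted P = 6.86e-07, edgeR), Kif14 (-0.50), Pif1 (-0.42), Cenpp (-0.42), Kif15 (-0.41), Trip13 (-0.40), Fbxo5 (-0.34) and Ckap5 (-0.32). Kif14 and Kif15 are mitotic kinesins, Trip13 disassembles the checkpoint complex and Fbxo5 encodes the APC/C inhibitor EMI1. None of these 8 was called after cisplatin alone, and the difference between cisplatin and cotreatment was not called in any of the 75 genes by edgeR.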
